A study of Drosophila melanogaster with 36 samples.

Results

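Total RNA was measured in ovaries after germline knockdown of cutoff and after a control knockdown, and the RNA signal was compared bin by bin along the Drosophila melanogaster genome. The units of the comparison were 1 kb bins of the dm3 assembly. A bin was kept where its mappability index, a column of the deposited table that is taken here as the share of the bin to which reads can be placed uniquely, was at least 0.5 and where the signal was at least 0.5 in any of the 3 libraries compared. This rule kept 42678 of 139714 bins, and 31939 of those kept overlapped an annotated exon. The signal is the number of reads scaled to the library total, divided by the mappability index, plus an offset of 0.01.

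Ovaries with germline knockdown of cutoff gave 1 library, and ovaries with a control germline knockdown gave 2 libraries, replicates 1 and 2. All 3 came from adult females aged 4 to 6 days, kept at 25 °C, and ribosomal RNA was removed before strand-marked libraries were made. Strands were not separated in the deposited values, so sense and antisense RNA of a bin are summed. Nothing states that the control replicates came from separate flies, so p-values measure the spread between these libraries, which may be technical. Libraries from rhino and deadlock knockdown, 1 each, were made in the same way and are given beside the cutoff library. The labels name neither the driver nor the construct of the knockdown, so somatic follicle cells, which are part of every ovary, are described only as far as the bins show them. Fewer germline cells and less RNA per cell cannot be told apart in such bulk samples. The transcript of cutoff and marker genes of ovarian cell types were not analysed here.

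Most germline piRNAs of the fly, the small RNAs that guide Piwi-family proteins against transposons, come from long clusters of transposon fragments. The dual-strand clusters, which are read from both strands, carry the chromodomain protein Rhino, a relative of HP1, which binds trimethylated lysine 9 of histone H3 (H3K9me3). Rhino recruits Deadlock and Cutoff, and Cutoff, a relative of a decapping factor, is known to protect the nascent cluster transcript from splicing and from termination. The uni-strand clusters, such as flamenco in follicle cells, are read from a single strand and do not need this complex.

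The libraries differed in depth and the controls differed from each other. The library totals, inferred here from the steps between signal values, were 169660000 reads for cutoff knockdown and 110810000 and 36290000 for control replicates 1 and 2. Reads summed over bins came to 110.8% of the total for cutoff knockdown and 110.8% and 110.7% for control replicates 1 and 2. Some reads may therefore count in more than 1 bin. Control replicate 2 stood apart. The median absolute log2 difference per bin was 0.160 between cutoff knockdown and control replicate 1, 0.622 between cutoff knockdown and control replicate 2, and 0.540 between the control replicates. The controls differed at least 4-fold in 934 bins, and replicate 2 was the higher in 892 of them. Of the bins kept, 485 reached the minimum in the cutoff library alone and 7466 in control replicate 2 alone. The main differences below are therefore given against each control as well. Log2 values are differences of log2(signal + 0.5), which understates changes at low signal.

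By limma's moderated test, with an adjusted p below 0.05 over all bins tested, 15 bins were called lower and 34 higher in the cutoff library than in the mean of the controls. These are 0.0351% and 0.0797% of the bins. Of the 15, 11 lay at least 2-fold below both controls, and of the 34 all lay at least 2-fold above both. With the filter set on the mean of the 3 libraries, an alternative added after seeing the data, limma called 0 lower and 14 higher bins (318 and 192 at an unadjusted p below 0.05). Without the filter on low values it called 0 in either direction (876 and 4396 unadjusted), and without the mappability filter also 0 in either direction (333 and 651 unadjusted). With 1 cutoff library, the test assumes that this library varies like the control pair. In the main fit the spread used was that shared over bins of like signal, not that of each bin's own controls. An exact permutation test of 1 library against 2 could not give a p below 0.333. At an unadjusted p below 0.05 there were 608 lower and 199 higher bins. Described by size alone, on the same log2(signal + 0.5) scale, 302 bins (0.708%) lay at least 2-fold below both controls and 277 bins (0.649%) at least 2-fold above both. Without control replicate 2 these numbers were 495 and 355, and without control replicate 1 they were 8890 and 1294. After the libraries were rescaled to equal medians, 24 bins were called lower and 134 higher, and 160 lay at least 2-fold below and 343 at least 2-fold above both controls. The share of higher calls was 84.8% after this rescaling and 69.4% without it.

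Across all bins kept, the median log2 difference of the cutoff library was -0.25 from the control mean, -0.05 from control replicate 1 and -0.43 from control replicate 2, while control replicate 2 minus replicate 1 was 0.34. The cutoff library lay below both controls in 19567 bins (45.8%) and above both in 7924 bins (18.6%). This shift of -0.25 over all bins is the level against which the medians below are read.

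The chromosome arms shared this small shift, while chromosome 4 and the heterochromatic and unplaced scaffolds varied in the number of bins far outside the controls. The median over the arms 2L, 2R, 3L and 3R was between -0.23 and -0.19, and that of X was -0.37. On X the controls themselves differed by a median of 0.52. Chromosome 4, a short chromosome that is largely heterochromatic, had 64 of 694 bins (9.22%) at least 2-fold below both controls and 2 above. Its median was -0.24, beside -0.25 over all bins, and it became 0.01 after rescaling to equal medians, so the low bins were a subset of the chromosome. Scaffold 3RHet, an assembled stretch of heterochromatin assigned to the arm 3R, was the opposite, with 6 of 262 bins below and 89 (34.0%) at least 2-fold above both controls. The median of 3RHet was 0.19 from the control mean, 0.22 from control replicate 1 and 0.41 from control replicate 2. Of the 262 bins, 98 had reached the minimum through the cutoff library alone, and without a filter on low values the median of 3RHet was -0.11. Scaffold U, which collects unplaced sequence, had 12 of 142 bins (8.45%) at least 2-fold below and 14 (9.86%) above both controls, with a median of -0.48 from the control mean and -0.10 from replicate 1. Scaffold 3LHet had 9 of 267 bins (3.37%) below and 2 above, with a median of -0.52 from the control mean and -0.37 from replicate 1. Scaffold 2RHet had 5 of 292 bins on each side and a median of -0.44. The smaller 2LHet had 0 of 24 bins below and 4 above, and XHet had 0 of 43 on either side.

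**Figure D1:**
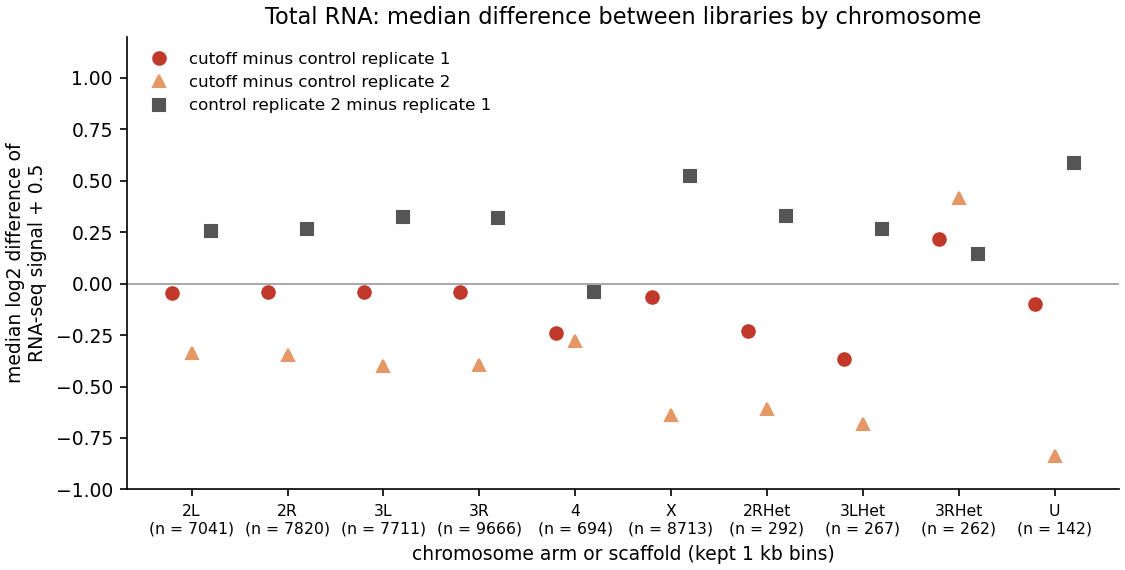
Median log2 difference of RNA-seq signal + 0.5 (y axis) for the arms and scaffolds with more than 100 kept bins (x axis, number of bins below each name). Circles are cutoff knockdown minus control replicate 1, triangles cutoff knockdown minus control replicate 2 and squares control replicate 2 minus replicate 1. On 2L, 2R, 3L, 3R and X the cutoff library lay between -0.06 and -0.04 of control replicate 1, chromosome 4 was at -0.24 and -0.28 with little difference between controls, and 3RHet was at 0.22 and 0.41.

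The heterochromatic flag of the table, which marks pericentromeric and scaffold sequence, went with more bins on both sides. Of 2034 flagged bins, 55 (2.70%) lay at least 2-fold below both controls and 134 (6.59%) above, against 247 (0.608%) and 143 (0.352%) of 40644 bins without the flag. Of the flagged bins, 171 had reached the minimum through the cutoff library alone, against 314 without the flag. The cutoff library had to be the higher one in those bins. Scaffold 3RHet by itself had 89 bins at least 2-fold above both controls. Bins without an exon held 172 of the 302 low bins and 152 of the 277 high bins, although they were 10739 of all bins kept. The median log2 difference was -0.47 without an exon and -0.14 with one. Against control replicate 1 alone these medians were -0.16 and -0.02, and after rescaling to equal medians the exon median was 0.11. Of the 10739 bins without an exon, 5547 had reached the minimum through control replicate 2 alone, against 1919 of 31939 with one. The cutoff library had to lie below replicate 2 there. Without the filter on low values both medians were -0.05.

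The bins with low RNA after cutoff knockdown were concentrated where Rhino was bound in the control. Rhino ChIP was expressed over input on the log2(signal + 1) scale. Of 188 bins with Rhino at 8-fold or more over input, 88 (46.8%) lay at least 2-fold below both controls and 11 (5.85%) above. Of 377 bins between 4-fold and 8-fold, 72 (19.1%) lay below and 40 (10.6%) above. Of 40240 bins under 2-fold, 116 (0.288%) lay below and 154 (0.383%) above, both under the share over all bins.

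The signal itself shows the size of this difference. In the bins at 8-fold or more the median signal was 0.0518 in cutoff knockdown, 0.0746 in rhino knockdown and 0.0718 in deadlock knockdown, against 0.898 and 0.996 in control replicates 1 and 2. The median log2 difference was -1.14 from the control mean, -1.11 from replicate 1 and -1.17 from replicate 2, while the controls differed by 0.06. After rescaling to equal medians it was -0.89. Between 4-fold and 8-fold the median was -0.69, and under 2-fold it was -0.24, beside -0.25 over all bins. The knockdown libraries share these controls, so their low values are not separate evidence.

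The pattern held in bins with and without an exon. At 8-fold or more over input, 80 of 166 bins without an exon and 8 of 22 bins with an exon lay at least 2-fold below both controls. Between 4-fold and 8-fold the numbers were 56 of 255 and 16 of 122. The H3K9me3 mark had a smaller share by itself: of 5195 bins in the authors' H3K9me3 peaks with Rhino under 4-fold, 34 (0.654%) lay below and 53 (1.02%) above. With Rhino at 4-fold or more inside such peaks, 142 of 376 (37.8%) lay below and 14 above. With Rhino at 4-fold or more outside the peaks, 18 of 189 (9.52%) lay below and 37 (19.6%) above. Of these 189 bins, 40 had reached the minimum through the cutoff library alone. The peaks are a flag of the authors, and the H3K9me3 signal itself was not used to divide the bins. A bin outside the peaks therefore need not lack the mark.

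**Figure D2:**
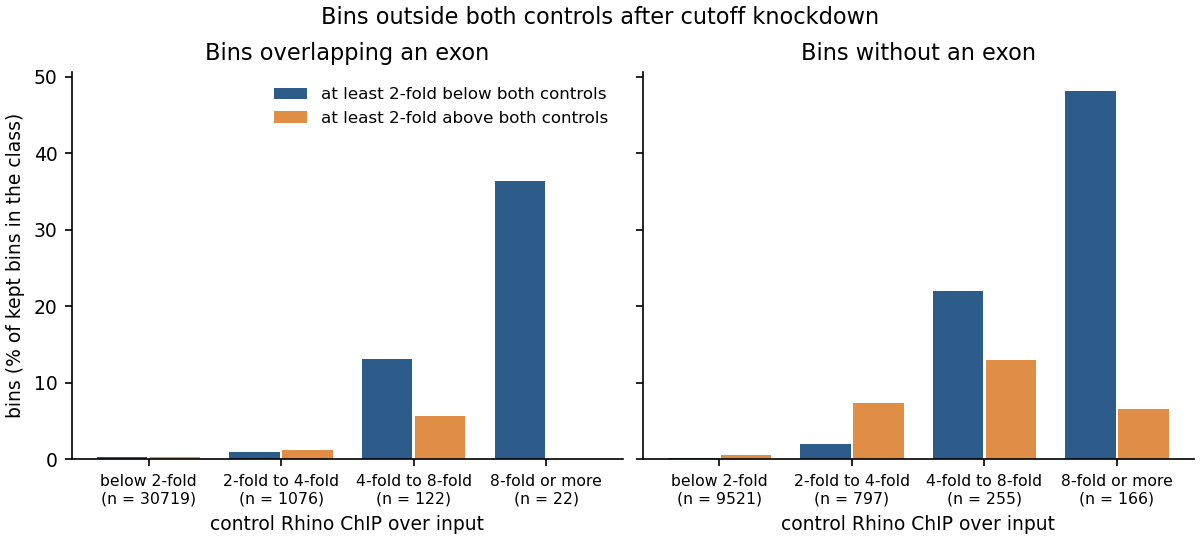
Share of kept bins at least 2-fold below both controls (blue) or above both controls (orange) after cutoff knockdown, in percent of the class (y axis), by control Rhino ChIP over input (x axis) for bins with an exon (left) and without (right). The low share climbs to 36.4% and 48.2% in the classes at 8-fold or more, and the high share peaks at 12.9% in bins without an exon between 4-fold and 8-fold.

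The Rhino-bound bins differed by place. Among bins at 4-fold or more over input, 53 of 101 (52.5%) on chromosome 4 and 50 of 77 (64.9%) in the major clusters lay at least 2-fold below both controls, with 1 and 3 bins above. On the other arms 37 of 196 (18.9%) lay below and 5 above. On the scaffolds the order was turned, with 20 of 191 (10.47%) below and 42 (22.0%) above, and 43 of those 191 bins had reached the minimum through the cutoff library alone.

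Small RNA divided the bins in the same way. Among bins with a control small RNA signal of 10 or more, 849 had lost at least 8-fold of it in cutoff knockdown, and 177 of them (20.8%) lay at least 2-fold below both RNA controls while 45 lay above. Of the 3429 bins that had not lost it, 11 (0.321%) lay below and 101 (2.95%) above. Within the group that had lost small RNA, 157 of 407 bins with Rhino at 4-fold or more lay below and 27 above. Of 442 bins with less Rhino, 20 lay below and 18 above. Where small RNA was not lost, 2 of 82 bins with Rhino at 4-fold or more lay below and 22 above. Of those 82, 25 had reached the minimum through the cutoff library alone. In the 407 bins the median RNA signal was 0.0526 in cutoff knockdown against 0.703 and 0.837 in the controls. The median small RNA signal was 0.778 in cutoff knockdown against 99.4 in the control, 1 library each.

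Among the named dual-strand clusters, the cutoff library lay below both controls in 36 of 40 kept bins of 42AB, a major germline cluster, in 23 of 24 of 80F, in 11 of 12 of 38C1 and in 8 of 10 of 38C2. At least 2-fold below both were 29, 13, 3 and 7 of these bins. Over all bins kept, 45.8% lay below both by any amount, and 69.3% of those without an exon did. The uni-strand clusters had 15 of 19 kept bins below both (13 of 15 in flamenco), beside 80 of 92 in the 5 dual-strand clusters. Lying below both by any amount was thus not particular to dual-strand clusters. Cluster 42AB (2R 2143001 to 2389000) had a mean signal of 0.623 in cutoff knockdown, against 3.05 and 2.19 in control replicates 1 and 2, over its 41 mappable bins. The cutoff library was below both. Summed reads were 4.06-fold lower than in replicate 1 (95% interval 3.90 to 4.22) and 2.95-fold lower than in replicate 2 (2.80 to 3.11), where the exact Clopper-Pearson intervals cover counting error only. Of its 40 kept bins, 29 lay at least 2-fold below both controls, and 6 were called lower.

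A single bin carried part of what remained in 42AB. The bin from 2380001 to 2381000, picked once its values were known, had a signal of 7.67 in cutoff knockdown against 1.51 and 0.864 in the controls, and held 37.1% of the cluster's cutoff reads. Without it the mean was 0.446 in cutoff knockdown, against 3.09 and 2.23 in the controls. Unique sequence is scarce in this cluster: only 3 kept bins had a mappability index of 0.9 or more, 1 of them below and 1 above, and their median log2 difference was 1.03 where that of all 40 bins was -1.71.

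Cluster 38C2 (2L 20104001 to 20121000) had a mean of 0.273 in cutoff knockdown against 0.841 and 0.796 in the controls, and 7 of 10 kept bins lay at least 2-fold below both. Its bin with the most cutoff reads held 48.8% of them, at 1.62 in cutoff knockdown against 0.484 and 0.521 in the controls. Cluster 38C1 (2L 20148001 to 20225000) had a mean of 0.188 against 0.705 and 0.602, and 3 of 12 kept bins lay at least 2-fold below both controls, while 11 lay below both by any amount. In both clusters the cutoff value was outside the controls, which lay close together.

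At 80F (3L 23281001 to 23312000) the mean hid most of the difference. It was 1.51 in cutoff knockdown against 2.55 and 2.06 in the controls, but 94.1% of the cutoff reads came from the last bin (23311001 to 23312000), which overlaps an exon and had 33.3 in cutoff knockdown against 34.6 and 21.1. Without it the mean was 0.129 in cutoff knockdown against 1.16 and 1.23, a ratio of 0.108 to the control mean. Of 24 kept bins, 23 lay below both controls and 13 at least 2-fold below.

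The published cluster at the distal end of chromosome 4 (1258001 to 1349000) had no bin at least 2-fold below both controls. Its mean over 20 mappable bins was 0.696 in cutoff knockdown against 0.495 and 0.663 in the controls. The higher cutoff mean rested on the bin from 1284001 to 1285000, at 6.22 in cutoff knockdown against 0.981 and 1.09. Without that bin, picked once its values were known, the mean was 0.405 against 0.469 and 0.640, below both controls. Of the 6 kept bins of the cluster, 2 lay below both controls by any amount, and 1 lay at least 2-fold above both. Its median log2 difference was -0.43 from the control mean, 0.16 from replicate 1 and -0.33 from replicate 2. The rhino and deadlock libraries had 1.09 and 1.56 there. Cutoff knockdown kept a Rhino ChIP mean of 24.2 in this distal cluster against 154 in the control, and a small RNA mean of 106 against 498. At 42AB these were 14.5 against 303 for Rhino and 65.4 against 3037 for small RNA.

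The uni-strand clusters had no bin at least 2-fold outside both controls. Flamenco (X 21502001 to 21688000) had a mean of 1.05 in cutoff knockdown against 1.34 and 2.41 in the controls, and its median log2 difference was -0.64 from the control mean, -0.21 from replicate 1 and -1.06 from replicate 2, with 0.88 between the controls. Cluster 20A (X 21391001 to 21428000) had a mean of 89.2 against 84.1 and 78.1 over 4 bins. Its median of -0.20 became 0.05 after rescaling. The 5 dual-strand clusters together had 52 of 92 kept bins (56.5%) at least 2-fold below both controls and 4 above, and the uni-strand clusters had 0 of 19 on either side. The dual-strand median was -1.28, or -1.03 after rescaling, and the uni-strand median was -0.61, or -0.36 after rescaling. Against control replicate 1 alone they were -1.35 and -0.21, and against replicate 2 alone -1.25 and -0.71. In bins with a mappability index of 0.9 or more they were -0.73 and -0.67, so the medians lay close together there. The difference between the classes was not tested.

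The chromosome ends carry telomere-associated repeats. At the 2R end (21139001 to 21147000) the mean was 3.94 in cutoff knockdown against 1.45 and 1.73 in the controls, and 2.83-fold (2.65 to 3.03) more reads than in replicate 1. A single bin (21141001 to 21142000), picked once its values were known, held 58.7% of the cutoff reads, and 2 of 6 kept bins lay at least 2-fold above both controls. At the 2L end (2001 to 12000) the mean was 17.3 against 23.4 and 19.2, with 0 of 7 bins at least 2-fold outside both. No bin of the 3R end passed the mappability filter.

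**Figure D3:**
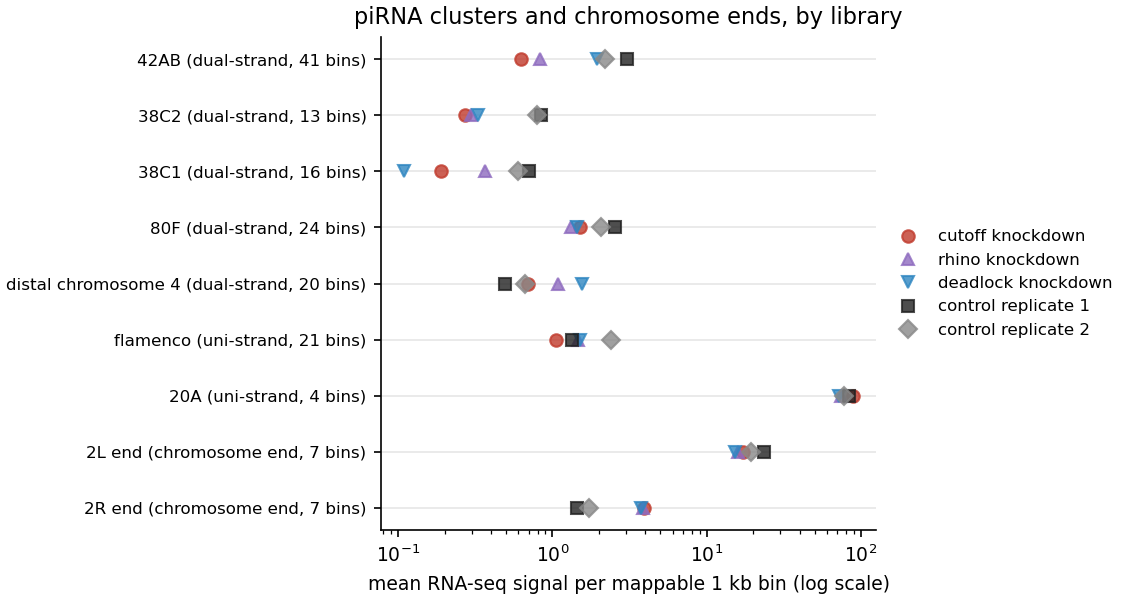
Mean RNA-seq signal per mappable 1 kb bin (x axis, log scale) of the named piRNA clusters and chromosome ends (rows, number of mappable bins in parentheses) in each of the 5 libraries. In 42AB, 38C2, 38C1 and 80F the cutoff library lies left of both controls, at the distal cluster of chromosome 4 and at 20A it lies right of them, and at the 2R end it lies right of both. At the distal cluster this rests on 1 bin, without which the cutoff mean is 0.405 against 0.469 and 0.640 in the controls.

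The called bins of 42AB formed 2 runs. In the bin from 2R 2213001 to 2214000 the signal was 0.0172 in cutoff knockdown, from 1 read, against 8.35 and 6.81 in the controls, from 757 and 202 reads. The log2 difference was -3.96 (SE 0.741), with an adjusted p of 0.000306 by limma. The whole run of 3 called bins (2210001 to 2214000) averaged 0.0218 in cutoff knockdown, 0.0569 in rhino knockdown and 0.0235 in deadlock knockdown, against 7.01 and 6.29 in the controls. The controls agreed closely and every knockdown value was far under them.

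The other run of 42AB (2226001 to 2229000) averaged 0.0581 in cutoff knockdown against 6.63 and 3.94 in the controls, with log2 differences between -3.46 and -3.14 and adjusted p values between 0.00537 and 0.0317 in limma. Rhino ChIP averaged 19.6 in cutoff knockdown against 731 in the control over the earlier run, and Cutoff ChIP averaged 12.8 against 86.7. In the later run Cutoff ChIP was 9.72 against 30.9. Small RNA of the earlier run was 4.75 in cutoff knockdown against 5082 in the control.

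Joining the low bins over gaps of up to 3 kb, with at least 4 bins at least 2-fold below both controls, gave 20 domains that held 142 of the 302 bins. This rule was added after the data were seen, and the bins were chosen for their low signal, so the values are a description. In 14 domains the median control Rhino signal was at least 4-fold over input. Their mean RNA signal was between 0.0233 and 0.148 in cutoff knockdown, against 0.797 to 5.64 in the control. The mean of the rhino library and that of the deadlock library, set beside the same controls, were below both in all 14. The Rhino ChIP mean of these domains was 8.67 to 19.5 in cutoff knockdown against 39.6 to 741 in the control.

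The longest domains lay on chromosome 4, outside the distal cluster. The domain from 819001 to 865000 had 34 low bins of 42 kept, 9 with an exon and 29 in a published cluster. The mean over the 34 low bins was 0.0517 in cutoff, 0.105 in rhino and 0.0789 in deadlock knockdown, against 1.31 and 1.24 in the controls. Every low bin was at 0.311 or less in cutoff knockdown and at 0.642 or more in both controls. The summed reads of the low bins were 239 in cutoff knockdown. That is 30.7-fold lower (26.9 to 35.1) than in control replicate 1 and 28.9-fold lower (25.2 to 33.2) than in replicate 2. The intervals cover counting error only and do not allow for the choice of bins by their low signal. The other kept bins are left out of these values.

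The domain from 718001 to 742000 on chromosome 4 had 21 low bins of 24 kept, 11 with an exon and 0 in a published cluster. Its means and folds are over the low bins alone, and the intervals do not allow for that choice. The mean was 0.0255 in cutoff knockdown, 0.0351 in rhino knockdown and 0.0263 in deadlock knockdown, against 1.00 and 1.26 in the controls. Reads were 63.9-fold lower (48.9 to 85.04) than in replicate 1 and 80.8-fold lower (61.6 to 108) than in replicate 2. Rhino ChIP averaged 9.997 in cutoff knockdown against 66.1 in the control, and small RNA 0.320 against 56.4. No bin of either domain passed the test, and the median log2 differences of their low bins were -1.57 and -1.52.

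Other low domains with Rhino were small. At the proximal end of 3R, bins from 2001 to 7000 averaged 0.0844 in cutoff knockdown against 0.886 and 1.04 in the controls. The 7 low bins of 9 kept from 12001 to 22000, all in a published cluster, averaged 0.124 against 1.49 and 1.14. On X, bins from 18434001 to 18439000 averaged 0.0233 against 0.641 and 1.05, and bins from 22384001 to 22388000 averaged 0.0297 against 0.664 and 0.929. On 2R, bins from 4121001 to 4125000 averaged 0.101 against 0.856 and 1.27. In each of these the highest cutoff bin lay below the lowest control bin, which the choice of bins by the 2-fold rule favours. Their small RNA was between 0.218 and 1.18 in cutoff knockdown against 15.3 to 183 in the control.

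**Figure D4:**
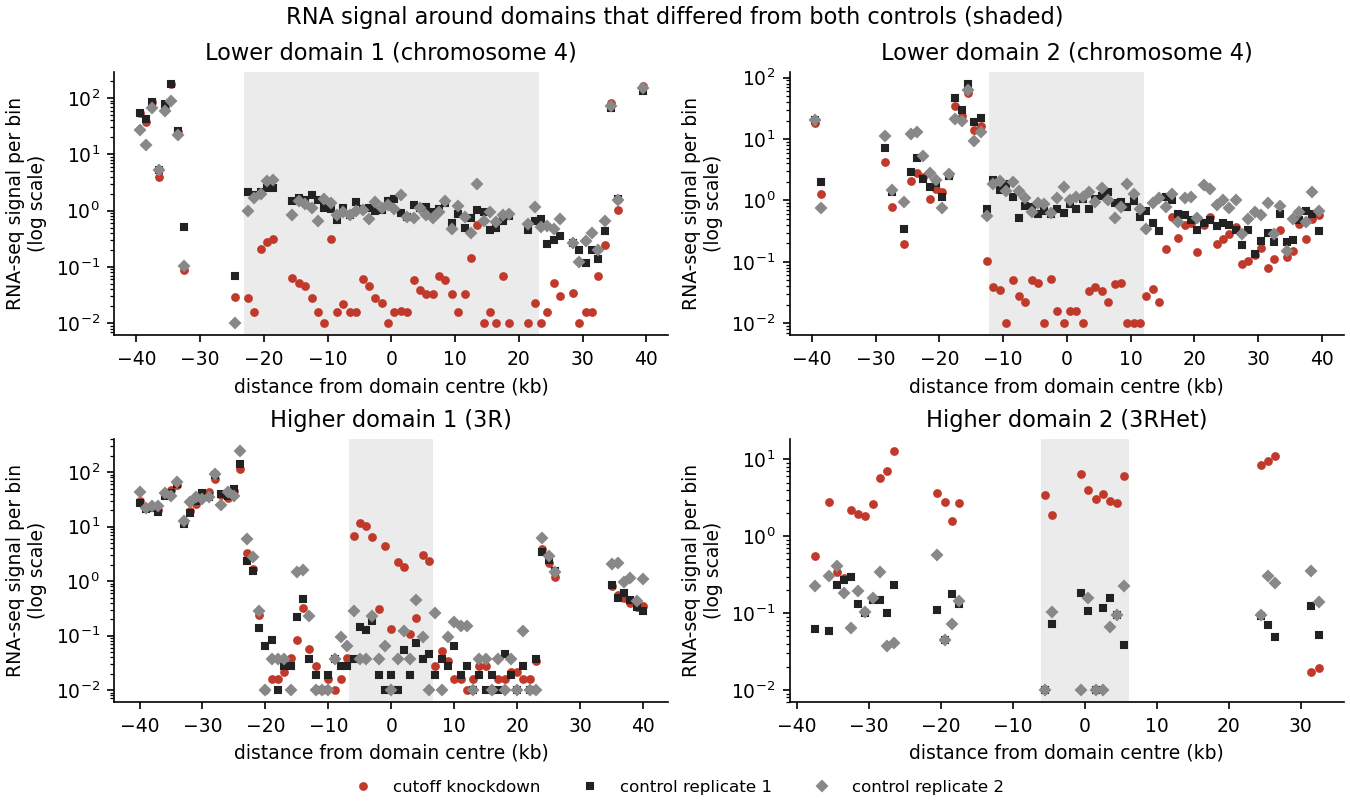
RNA-seq signal per mappable 1 kb bin (y axis, log scale) within 40 kb of the centre of the 2 longest lower domains (top, chromosome 4) and of the 2 higher domains with the largest summed change (bottom, 3R and 3RHet), against distance from the centre in kb (x axis). Among the bins that make up the shaded domains, the cutoff values on chromosome 4 lie at 0.311 or less and the control values at 0.542 or more. In the higher domains the cutoff values lie at 1.85 or more and the control values at 0.286 or less. The 2-fold rule that chose these bins fixes which side is higher and puts that side above 0.5.

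Low RNA also occurred in exon bins without Rhino. The remaining 6 of the 20 low domains held 25 bins, all of them overlapping an exon, with Rhino ChIP at 8.16 to 11.0 in cutoff knockdown against 8.19 to 11.2 in the control. Their small RNA was 0.297 to 12.2 in cutoff knockdown against 0.458 to 2.20 in the control. On X, bins from 5882001 to 5887000 averaged 5.94 in cutoff knockdown, 9.37 in rhino knockdown and 2.84 in deadlock knockdown, against 21.2 and 16.3 in the controls. On 3R, bins from 3371001 to 3375000 averaged 2.86 in cutoff, 8.29 in rhino and 1.23 in deadlock knockdown, against 16.6 and 10.8 in the controls. Both knockdown libraries beside cutoff lay below both of the shared controls in all 6 of these domains.

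The 3 called exon bins from X 15569001 to 15572000 also fell, and Rhino was not enriched there. The bin from 15570001 to 15571000 had 0.0679 in cutoff knockdown, 0.579 in rhino knockdown and 0.185 in deadlock knockdown, against 4.14 and 15.6 in the controls. Its log2 difference was -3.93 (SE 0.738), adjusted p 0.000319 by limma. Over the 3 bins the mean was 0.0726 in cutoff knockdown against 3.26 and 13.5, so the controls differed from each other but both lay far above. Rhino ChIP was 8.62 in cutoff knockdown against 8.36 in the control, and control small RNA 0.215.

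The other 6 called lower bins rested on control replicate 2. In 4 of them the cutoff library was less than 2-fold below replicate 1 on the log2(signal + 0.5) scale, as at X 19566001 to 19567000, with 0.556 in cutoff knockdown against 0.818 in replicate 1 and 279 in replicate 2. At 2L 17539001 to 17540000 the values were 0.0160 in cutoff knockdown against 0.0191 and 43.5. At X 19395001 to 19396000 they were 0.222 in cutoff knockdown against 0.218 and 208, and at X 10471001 to 10472000 they were 0.567 against 1.23 and 47.9. The remaining 2 had replicate 2 far above replicate 1 as well. At X 5418001 to 5419000 the values were 75.6 in cutoff knockdown against 173 and 746, and at 2R 9795001 to 9796000 they were 54.7 against 110 and 537. A call in such bins is not separable from the difference between the controls.

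All 34 called higher bins lay at least 2-fold above both controls. Their largest difference was at 3RHet 836001 to 837000, with 40.8 in cutoff knockdown, 129 in rhino knockdown and 231 in deadlock knockdown, against 0.572 and 0.634 in the controls. The log2 difference was 5.23 (SE 0.736), adjusted p 5.29e-08 by limma. The mappability index of this bin is 0.530. In the bin U 5559001 to 5560000, on a scaffold of unplaced sequence, the signal was 12.1 in cutoff knockdown, 12.4 in rhino knockdown and 6.34 in deadlock knockdown, against 0.0511 and 0.0519 in the controls, a log2 difference of 4.51 (SE 0.768) with an adjusted p of 3.72e-05 by limma. Of the 277 bins at least 2-fold above both controls, 187 had passed the minimum through the cutoff library alone, which had to be the higher one there.

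The high bins of 3RHet lay in separate stretches and not along the whole scaffold. From 500001 to 750000, 44 of 65 kept bins lay at least 2-fold above both controls, and from 2000001 to 2250000, 25 of 52. From 1750001 to 2000000, 0 of 74 did, and 1 lay below. The bins from 2119001 to 2129000 averaged 4.63 in cutoff knockdown, 4.55 in rhino knockdown and 2.00 in deadlock knockdown, against 0.152 and 0.156 in the controls. The bins from 2149001 to 2161000 averaged 3.78 in cutoff, 4.06 in rhino and 1.77 in deadlock knockdown, against 0.0872 and 0.0767. In both stretches the knockdown values lay far above both controls, whose values were close to each other. The called bin from 2128001 to 2129000 had 12.9 in cutoff knockdown against 0.236 and 0.0414 in the controls. Exon bins called at 2477001 to 2478000 and 2480001 to 2481000 had 7.47 and 8.22 in cutoff knockdown, against 0.154 and 0.175 in the controls for the one and 0.308 and 0.230 for the other.

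Called bins in 3RHet included the run from 2179001 to 2182000, whose 3 bins had all reached the minimum through the cutoff library alone. It averaged 9.60 in cutoff knockdown, 13.9 in rhino knockdown and 8.46 in deadlock knockdown, against 0.0706 and 0.214 in the controls, with log2 differences between 3.88 and 4.17 and adjusted p values between 0.000189 and 0.000907 in limma. Small RNA from the run was 250 in cutoff knockdown against 87.1 in the control. In contrast, the 13 high bins of 15 kept from 622001 to 638000 had small RNA of 4.73 in cutoff knockdown against 132 in the control. Their RNA was 1.55 in cutoff knockdown against 0.158 and 0.168 in the controls. Of these 13 bins, 12 had reached the minimum through the cutoff library alone. RNA was higher both where small RNA was lower and where it was higher.

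The pericentromeric end of 2L held a similar run without exons, in a published cluster. The bins from 2L 22280001 to 22283000 averaged 22.2 in cutoff knockdown, 44.2 in rhino knockdown and 33.7 in deadlock knockdown, against 0.185 and 0.521 in the controls. Of these 3 bins, 2 had reached the minimum through the cutoff library alone. The bin from 22281001 to 22282000 had a log2 difference of 5.06 (SE 0.743), adjusted p 2.05e-07 by limma. Rhino ChIP averaged 11.5 in cutoff knockdown against 25.1 in the control, and small RNA was 41.5 against 43.5.

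Exon bins on the arms also rose. On 2R, the bins from 5125001 to 5128000 averaged 89.4 in cutoff knockdown, 56.5 in rhino knockdown and 63.9 in deadlock knockdown, against 10.8 and 4.66 in the controls. The bin from 5126001 to 5127000 had 172 in cutoff knockdown against 20.4 and 8.99, a log2 difference of 3.61 (SE 0.625) and an adjusted p of 5.03e-05 by limma. Another run on 2R, from 14747001 to 14750000, averaged 59.2 in cutoff knockdown and 51.3 in rhino knockdown but 8.10 in deadlock knockdown, against 9.31 and 3.84 in the controls. In that run Rhino ChIP was 8.72 in cutoff knockdown against 33.0 in the control, and small RNA was 2.45 against 62.0. At 3L 14265001 to 14266000, a bin without an exon, the signal was 83.9 in cutoff knockdown, 83.8 in rhino knockdown and 94.8 in deadlock knockdown, against 6.94 and 4.67. Its small RNA was 9.72 in cutoff knockdown against 115 in the control. In these bins the cutoff value was far above both controls, which differed from each other by less.

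**Figure D5:**
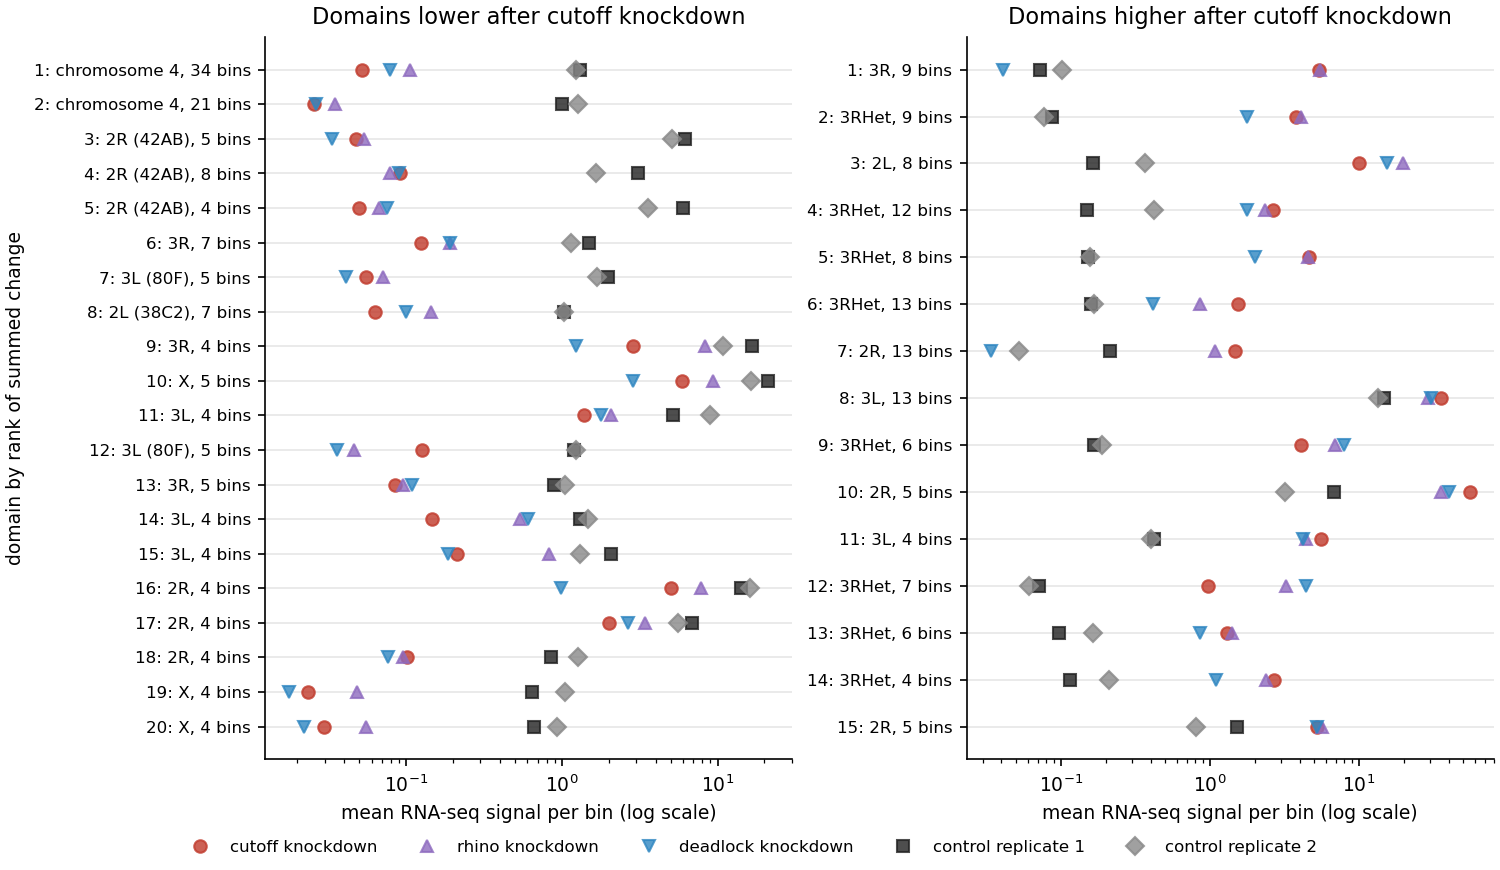
Mean RNA-seq signal per bin (x axis, log scale) of the 20 lower (left) and 15 higher (right) domains (rows, ordered by summed change, with chromosome, cluster where there is one and number of bins) in the 5 libraries. Means are over the bins that met the 2-fold rule alone. The cutoff library is left of both controls in all lower domains and right of both in all higher domains, which the choice of bins fixes. In higher domains 1 and 7 the deadlock library lies left of both controls while the rhino library lies near cutoff. The deadlock and control means of these domains are at 0.214 or less.

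A difference between the knockdowns was tested in limma with all 5 RNA-seq libraries, where the control pair again gave the only spread. Between cutoff and rhino knockdown, 0 of 42678 bins were called lower and 0 higher (0% each), with 35 lower and 12 higher at an unadjusted p below 0.05. Between cutoff and deadlock knockdown, 4 bins were lower (0.00937%) and 9 were higher (0.0211%), with 107 and 71 at an unadjusted p below 0.05. All 9 bins higher in cutoff than in deadlock knockdown overlapped an exon, as did 74.8% of all bins kept, and 4 of the 9 also rose against the control. Not being called does not show that cutoff and rhino knockdown were alike.

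In the 5 bins that were not called against the control, the deadlock library was low. The largest of these differences was at 2L 13212001 to 13213000, with 145 in cutoff knockdown, 102.5 in rhino knockdown and 2.26 in deadlock knockdown, against 116 and 17.0 in the controls. The difference between cutoff and deadlock knockdown was 5.72 there, adjusted p 1.47e-11 by limma. The bin before it (13211001 to 13212000) had 79.2 in cutoff, 58.1 in rhino and 3.195 in deadlock knockdown, against 65.1 and 11.8 in the controls. In both bins the controls differed from each other, and the deadlock value lay below both of them. The bins from 2L 21145001 to 21147000 had 26.2 and 33.9 in cutoff knockdown, 21.9 and 28.5 in rhino knockdown and 2.03 and 2.81 in deadlock knockdown. In the controls they had 25.7 and 32.7 in replicate 1 and 36.7 and 57.7 in replicate 2. At X 6177001 to 6178000 the values were 25.5 in cutoff, 11.9 in rhino and 0.880 in deadlock knockdown, against 27.0 and 4.05 in the controls.

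The bins that also rose against the control included a run on 3R. The bin from 3R 21903001 to 21904000 had 11.9 in cutoff knockdown and 11.6 in rhino knockdown but 0.134 in deadlock knockdown, against 0.145 and 0.0376 in the controls. It was higher in cutoff than in deadlock knockdown by 4.29 on the log2 scale, with an adjusted p of 0.00428 by limma, and higher than in the controls by 4.40 (SE 0.767), adjusted p 5.18e-05. The run of 5 called bins (21902001 to 21908000) averaged 7.91 in cutoff knockdown, 7.63 in rhino knockdown and 0.0411 in deadlock knockdown, against 0.10 and 0.131. All 5 had reached the minimum through the cutoff library alone, which had to be higher than the controls there. Control Rhino ChIP was 8.5, where the input was 8.84, and small RNA was 23.9 in cutoff knockdown against 0.243 in the control.

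The bin from 2L 14774001 to 14775000 had a like pattern, with 14.8 in cutoff and 15.5 in rhino knockdown but 0.150 in deadlock knockdown, against 0.642 and 0.534 in the controls. The difference between cutoff and deadlock knockdown was 4.56, adjusted p 0.000653 by limma. Small RNA there was 0.731 in cutoff knockdown against 12.3 in the control. On 2R the 13 high bins of 18 kept from 20334001 to 20353000 averaged 1.48 in cutoff and 1.08 in rhino knockdown. They averaged 0.0339 in deadlock knockdown, against 0.214 and 0.0524 in the controls. In these 2 places the cutoff and rhino values lay above both controls and the deadlock value below both, each from a single library. On 2R all 13 bins had reached the minimum through the cutoff library alone, which had to be higher than the controls there. Control replicate 2 held 20 reads over them, so it and the deadlock value lay near the offset of 0.01 and their order carries little weight.

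In the opposite direction, cutoff was lower than deadlock knockdown in 3 bins of the unplaced scaffold U and in 1 exon bin. At U 913001 to 914000 the signal was 8.16 in cutoff knockdown, 23.4 in rhino knockdown and 117 in deadlock knockdown, against 0.351 and 0.159 in the controls. The difference between cutoff and deadlock knockdown was -3.77 (adjusted p 0.0126 by limma), while the bin rose against the control with an adjusted p of 0.00596. At 2R 8841001 to 8842000 the values were 0.971 in cutoff, 5.97 in rhino and 21.3 in deadlock knockdown, against 0.218 and 0.616 in the controls. At U 4027001 to 4028000 they were 0.736 in cutoff, 1.11 in rhino and 18.1 in deadlock knockdown, against 0.877 and 2.15, and at U 4028001 to 4029000 they were 0.395, 0.940 and 14.1 in the same order, against 0.456 and 1.46. In these 2 bins the cutoff value was below both controls, and the deadlock value was above them. The bins that differed between knockdowns were not all chosen by the rule for named bins, and all 13 are given because they are the full set called.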

How the data were processed

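The values come from a table of 139714 bins of 1 kb on dm3, deposited by the authors, that holds a normalised signal per bin. Per the submitters' processing notes, the tools were GSNAP, Bowtie 0.12.7, cutadapt 1.0, bedtools 2.16.1 and SAMtools 0.1.16, with no role stated. The offset (0.01 for RNA-seq, 0.1 for other assays) and the mappability correction were removed to recover reads. In the RNA-seq libraries every value of up to 500 reads was then a whole read number within 0.1 read. The same held for small RNA of control and cutoff knockdown and for Cutoff ChIP of the control. Whole reads were not established for Rhino ChIP and Cutoff ChIP of cutoff knockdown or for averaged signals. The deposited control Rhino ChIP, H3K9me3 ChIP and input signals are the authors' averages. A further 16 columns were not used here.

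The test was limma 3.58.1 in R 4.3.3 with an intensity trend on log2(signal + 0.5), Benjamini-Hochberg adjusted over all bins kept. Each bin has 1 residual degree of freedom, moderated over all bins. The fitted prior degrees of freedom were infinite in the main fit and in the fit of all 5 RNA-seq libraries. Each bin's own control spread was thus replaced by the value of the trend. The prior degrees of freedom were finite without the filter on low values (1.10), without the mappability filter (4.62) and with the filter on the mean (25.3). The procedure was also run on simulated data, in which only bins with a high control signal were changed and all bins had the same spread. It therefore does not cover bins with low control signal or with controls that differ strongly. Clusters and chromosome ends are runs of the table's cluster flags, named by their order along the chromosome. Named bins are these regions, the 10 called loci with the largest change in each direction and runs of at least 3 called bins, joined over gaps of up to 3 kb. Other bins are named as picked once their values were known. Members, regions and lists were chosen with earlier results of these data known. Alternatives were other pseudocounts, filters, mappability limits, scaling, voom weights, no trend, all 5 RNA-seq libraries in 1 fit and leaving out each control.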

Additional observations from a re-analysis of the deposited data

Results flagged for a closer look

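The difference between cutoff and deadlock knockdown passed limma's test of the difference itself in 13 bins. Of these, 4 were higher in cutoff than in deadlock knockdown and had also risen against the control. On 3R, cutoff knockdown was above deadlock knockdown by 3.81 on the log2 scale at 21902001 to 21903000 (6.65 in cutoff and 0.01 in deadlock knockdown, adjusted p 0.0464 by limma), by 4.29 at 21903001 to 21904000 (11.9 and 0.134, adjusted p 0.00428 by limma) and by 4.39 at 21904001 to 21905000 (10.2 and 0.01, adjusted p 0.00415 by limma). On 2L it was above deadlock knockdown by 4.56 at 14774001 to 14775000 (14.8 and 0.150, adjusted p 0.000653 by limma). In each of these bins the rhino library was close to the cutoff library, at 7.47, 11.6, 8.22 and 15.5.

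A further 5 bins were higher in cutoff than in deadlock knockdown without a call against the control. The differences were 5.72 and 4.43 at 2L 13212001 and 13211001, 3.38 and 3.40 at 2L 21146001 and 21145001, and 4.24 at X 6177001. In the opposite direction cutoff was lower than deadlock knockdown by -4.02 at U 4028001, -3.91 at U 4027001, -3.89 at 2R 8841001 and -3.77 at U 913001, and of these U 913001 had also risen against the control. Each knockdown is a single library, and the spread comes from the control pair.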

How the results depend on the processing

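Control replicate 2 is the shallowest of the 3 libraries, with an inferred total of 36290000 reads, and the single cutoff library gives no spread of its own. No paired analysis was possible because the cutoff group has 1 library, which carries no replicate number. With 1 control left there is no residual degree of freedom, so the values without a control have no test.

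Leaving out a control moved the number of bins at least 2-fold below from 495 to 8890 and above from 355 to 1294, and the dual-strand median ranged from -1.35 to -1.25. The median of the 2L end ranged from -0.43 to 0.018 and that of the distal cluster of chromosome 4 from -0.33 to 0.16. In the main setting 302 and 277 bins lay at least 2-fold below and above both controls, 15 and 34 were called lower and higher by limma, and the medians were -1.14 for Rhino at 8-fold or more and -1.28 for the dual-strand clusters. The values below follow this order.

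A pseudocount of 1 gave 123 and 180 bins outside the controls, 9 called lower, and medians of -0.74 and -0.88. A pseudocount of 0.1 gave 1308 bins below and medians of -2.34 and -2.43. Without the filter on low values limma called 0 lower and 0 higher bins (876 and 4396 at an unadjusted p below 0.05), the medians were -0.62 and -1.105, and those of 3RHet (-0.11) and the 2R end (-0.36) turned. A minimum of 2 gave 135 and 153 bins outside, 3 and 9 called, medians of -1.89 and -2.28, and 5 bins that differed between cutoff and the other knockdowns, where the main count was 13. A mappability index of at least 0.9 gave 166 bins above, 3 and 15 called, medians of -1.31 and -0.73, 8 bins between knockdowns, and turned 42AB (1.03, from 3 bins) and 38C1 (0.22, from 1 bin). Without a mappability filter there were 707 and 978 bins outside, 0 and 0 called by limma (333 and 651 at an unadjusted p below 0.05), medians of -0.89 and -1.40, and the medians of the distal cluster of chromosome 4 (0.79) and 20A (0.11) turned. Rescaling gave 160 bins below, 24 and 134 called, medians of -0.89 and -1.03, 26 bins between knockdowns, and turned chromosome 4 (0.0087), exon bins (0.11) and 20A (0.048). With voom weights 2 and 13 bins were called, 2 and 11 of them shared with the main test, and the medians were -4.15 and -3.71. With the filter on the mean of the 3 libraries, added after seeing the data, limma called 0 and 14 (318 and 192 at an unadjusted p below 0.05), with medians of -1.414 and -1.415. The authors' window selection, added likewise, gave -1.19 for Rhino at 8-fold or more. The causes were not tested.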
